A study of Saccharomyces cerevisiae with 104 samples.

Results

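The genes described here are those of the mitochondrial genome of Saccharomyces cerevisiae, taken as every row of the gene count table whose identifier starts with Q0 together with the rows 15S_rRNA and 21S_rRNA. The rule gave 30 of 7122 gene rows, of which 17 passed the filter on low counts and were tested. The rule used identifiers only and no measured value.

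Yeast mitochondria keep a small circular-mapping genome that encodes both ribosomal RNAs of the mitochondrial ribosome, one of its proteins, and a few core subunits of the respiratory chain and the ATP synthase. It is transcribed by a dedicated RNA polymerase made in the nucleus, and its long primary transcripts are cut and spliced by nuclear proteins and by maturases encoded within its own introns. Cells that lose this genome can still grow on fermentable carbon.

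The study measured RNA in yeast strains in which histone H3 or H4 carries 1 substituted residue, with the wild type (WT) as the reference. All strains share the MSY196 background, which is based on S288C. Total RNA was taken by hot acidic phenol, and libraries were made with the Lexogen QuantSeq 3′ FWD kit, which primes complementary DNA with oligo(dT). The 90 RNA libraries covered 30 genotypes, with 4 libraries for WT and for H4Y88A, 2 for H3T3A and for H3T3D, and 3 for every other genotype. The 22 H3 mutants were H3T3A, H3T3D, H3K4Q, H3K4R, H3K18A, H3S31D, H3K36A, H3K36Q, H3K36R, H3K37Q, H3K37R, H3R40K, H3S86A, H3S86D, H3K115A, H3K115Q, H3K115R, H3K121A, H3K121Q, H3K121R, H3K122A and H3K122Q. The 7 H4 mutants were H4K44Q, H4K44R, H4R55A, H4Y88A, H4Y88F, H4K91Q and H4K91R. In each name the letter before the position is the residue replaced and the letter after it the replacement. No label says that libraries of a genotype came from separate cultures, so the p-values measure the spread between libraries, which may be technical.

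Gene counts per library ran from 768398 to 3143681 with a median of 1507838, except for 1 H3K4R library, S55, which held 24010. Libraries are named by genotype and by the sample number in the count table. Those numbers fall into 3 sets: S46 to S93 with 44 libraries and 3 of the WT, S94 to S117 with 22 libraries and no WT, and S118 to S141 with 24 libraries and 1 WT. The labels do not say what the sets are, and the division follows earlier work on these data. Yeast mitochondrial mRNAs are known to lack long poly(A) tails, and which positions the oligo(dT) primed was not examined.

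The members together held 799611 counts, and most of these lay in few rows. The 21S ribosomal RNA, the large ribosomal RNA of the mitochondrial ribosome, took 66.8% of them. AI1, a reading frame inside an intron of the COX1 gene that encodes a maturase with reverse transcriptase, took 22.1%. All reading frames within COX1 introns (AI1 to AI5_BETA) took 28.4%, and both ribosomal RNA rows took 67.6%. Counts per row can depend on priming and on how overlapping rows were counted as well as on RNA level. Genes are therefore compared here with themselves across genotypes and not with each other.

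Many rows overlap on the mitochondrial chromosome (MT in RefSeq assembly R64, whose table supplied the positions). COX1, which encodes a subunit of cytochrome c oxidase, spans 13818 to 26701, and AI1, AI2, AI3, AI4 and AI5_ALPHA all start at 13818, while AI5_BETA lies inside COX1 from 24156 to 25255. COB, which encodes cytochrome b, and its intron frames BI2, BI3 and BI4 all start at 36540. SCEI, the intron-encoded homing endonuclease, spans 61022 to 61729 within the 21S rRNA row from 58009 to 62447. Q0255, a reading frame known here by its identifier, spans 74495 to 75984 and overlaps the end of COX2, another cytochrome c oxidase subunit, at 74513. How the counting divided reads between such rows is uncertain.

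Of the 13 members that did not pass the filter, 5 had no count in any library. VAR1, the ribosomal protein of the mitochondrial genome, had 143 counts over all libraries, the most among these rows, and ATP8, a subunit of the ATP synthase, had 6. COX3 and COB, which encode subunits of cytochrome c oxidase and of the cytochrome bc1 complex, were also among them. None of the 13 was tested.

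Each library's mitochondrial share, the percent of its gene counts that lie in the 30 member rows, rested on 2975 to 28270 counts outside S55. Its Wilson 95% interval was within 3.59% of the share on either side, which covers counting error only. The share ran from 0.191% in H3S86D library S113 to 1.495% in H3K4R library S56, with a median of 0.506%. In a bulk sample, more mitochondrial genomes or more cells that keep them, more RNA per genome, and less nuclear RNA all raise this share and cannot be told apart. Priming, on which counts per row can depend, can change the share as well and was not examined.

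The WT libraries S46, S81, S82 and S133 had shares of 0.346%, 0.577%, 0.593% and 0.508%, a mean of 0.506% ± 0.113 (SD, n = 4). The highest mean was that of H3K4Q at 1.12% ± 0.616 (SD, n = 3), from shares of 1.47%, 1.49% and 0.413%. H3T3A followed at 0.972% ± 0.378 (SD, n = 2), from 1.24% and 0.705%. H3K4Q and H3T3A therefore differed widely between their own libraries, and the H3K4Q library S98 lay below 3 of the 4 WT libraries.

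H3K36Q came next at 0.885% ± 0.410 (SD, n = 3), from 1.25%, 0.960% and 0.443%. The lowest means were H3S86D at 0.304% ± 0.127 (SD, n = 3), from 0.280%, 0.441% and 0.191%, H3S86A at 0.331% ± 0.0265, from 0.358%, 0.330% and 0.305%, and H3K18A at 0.354% ± 0.129, from 0.334%, 0.237% and 0.493%. Both substitutions of serine 86 of H3 thus stood at the low end, and each overlapped the range of the WT.

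The ratio of mean shares to the WT was 2.22 for H3K4Q, 1.92 for H3T3A and 1.75 for H3K36Q, and 0.601 for H3S86D, 0.654 for H3S86A and 0.701 for H3K18A. Without the 21S and 15S rows these ratios became 2.03, 1.72, 1.56, 0.688, 0.737 and 0.813. Each ratio thus stayed on its side of 1 without the ribosomal RNA rows, although H3S31D, at 1.51 with them and 1.62 without, then passed H3K36Q. The mean exceeded that of the WT in 19 of 29 mutants. H3S31D, H3T3A, H3T3D and H4K91Q had every library above every WT library, no mutant had every library below, and 25 overlapped the WT. Of all genes tested, 12.4%, 12.6%, 19% and 3.56% lay wholly above the WT in those mutants, in that order. H3T3A and H3T3D have only 2 libraries each. H3S31D, H3T3A and H3T3D lie wholly in the third set, which holds 1 WT library. Between genotypes next to each other in the order of means, all 29 pairs overlapped. The share is a sum over the members and was given no test.

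**Figure D1:**
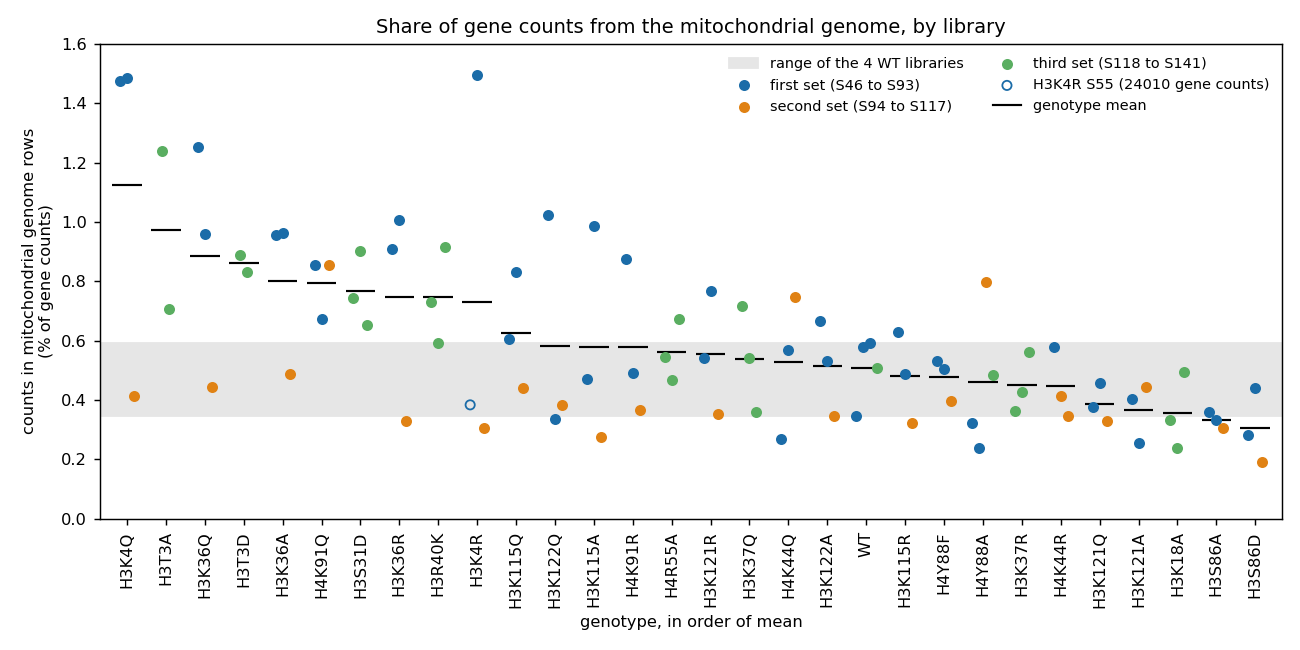
Mitochondrial share of gene counts (percent, vertical axis) in each library, by genotype on the horizontal axis, with points for libraries coloured by set of sample numbers, an open point for H3K4R S55, short lines for genotype means and a grey band for the range of the 4 WT libraries. Genotypes run from H3K4Q at 1.12% to H3S86D at 0.304%, and the libraries of genotypes next to each other overlap.

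The share followed the sets of sample numbers. Its median was 0.573% in the first set, 0.374% in the second and 0.577% in the third. Of 21 genotypes with libraries in the first and second set, 16 had every first-set library above every second-set library, 4 had the reverse (H3K121A, H4K44Q, H4K91Q and H4Y88A) and 1, H3K122Q, overlapped. In the edgeR fit with the set as a term, 13 of the 17 members were lower in the second set than in the first, where 21.6% of all genes tested were lower, and 0 were higher. The median difference over the members was −0.64 on the log2 scale, against −0.02 over all genes. The largest was BI4, a maturase frame of COB, at −1.01 (SE 0.131, adjusted p = 3.04e-09), and 21S rRNA fell by 0.64 (SE 0.135, adjusted p = 9.88e-05) and 15S rRNA by 0.74 (SE 0.146, adjusted p = 2.86e-05). COX1 at −0.21, AI1 at −0.14, AI2 at −0.11 and AI5_BETA at −0.06 did not pass. Between the third and the first set 0 of 17 passed, where 1.13% of genes were lower and 1.98% higher, although the members' median difference was −0.54. With 1 WT library in the third set and none in the second, mutants that lie wholly in the third set share their set with only that WT library.

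High shares also clustered in a run of sample numbers. The libraries S49 to S58, which hold H3K36A, H3K36Q, H3K36R, H3K4Q and H3K4R, had shares of 0.907% to 1.495% (9 libraries, without S55). The same 5 genotypes in the second set had shares of 0.307% to 0.487% in 5 libraries, and the other 34 libraries of the first set had a median of 0.517% and a highest share of 1.02%. The H3K4 and H3K36 means above the WT therefore rested on the first-set libraries, but the second set holds no WT library for comparison. Against the second-set median of 0.374%, H3K36A (0.487%), H3K36Q (0.443%) and H3K4Q (0.413%) lay above, and H3K36R (0.329%) and H3K4R (0.307%) below. With the set as covariate the members' median log2 changes were 0.55 in H3K36A, 0.73 in H3K36Q, 0.455 in H3K36R, 1.13 in H3K4Q and 0.62 in H3K4R. What this run shares was not given in the labels.

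Reads that the authors' counter set aside as not uniquely aligned were also compared with the share, as their ratio to gene counts. On the log2 scale the correlation over 89 libraries, without S55, was Pearson r = 0.547 and Spearman rho = 0.623. It was r = 0.866 within the first set (n = 43), 0.855 within the second (n = 22) and 0.219 within the third (n = 24). H3R40K had the lowest ratios of the series, 1.26 to 1.62 against up to 8.17, with shares of 0.592% to 0.917%. Without its libraries r was 0.821 in the third set (n = 21) and 0.705 over all sets (n = 86). Both measures share gene counts as denominator and the same libraries, so this is a description. With not-unique reads taken over all lines of the table r was 0.411 over the 89 libraries, and it was −0.234 between the share and log2 gene counts.

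**Figure D2:**
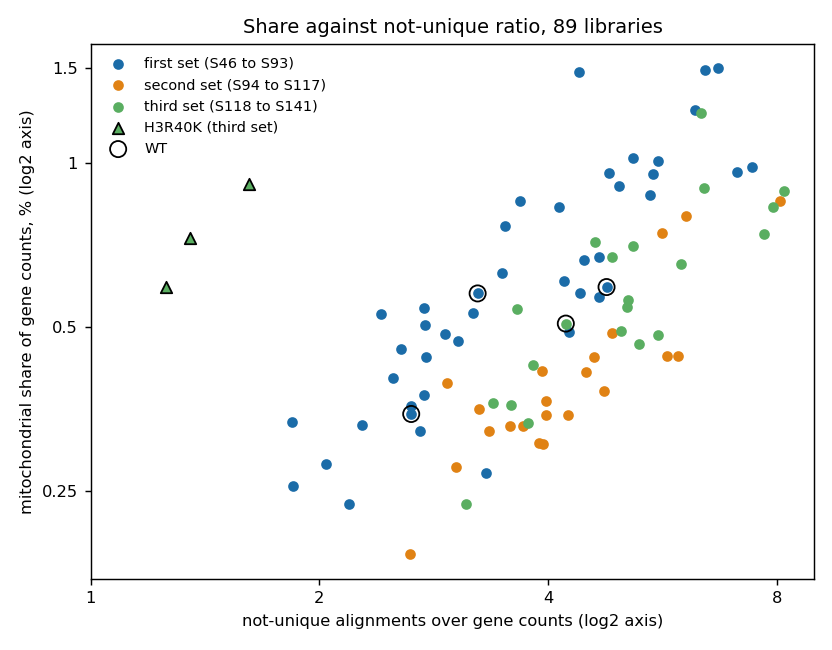
Mitochondrial share of gene counts (percent, log axis) against the ratio of not uniquely aligned reads to gene counts (log axis) in 89 libraries, 1 point each, coloured by set of sample numbers, with WT libraries circled and H3R40K as triangles. The points rise together in the first and second sets, while the H3R40K libraries at ratios of 1.26 to 1.62 stand apart.

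The difference from WT was then tested for each member in each mutant with edgeR's quasi-likelihood test, fitted on all genes tested in all 90 libraries with Benjamini-Hochberg adjustment within each comparison. Over 29 mutants this made 493 member tests, of which 0 were higher and 2 lower at an adjusted p below 0.05, where 0.856% of all tests were higher and 0.548% lower. At an unadjusted p below 0.05, 51 member tests passed, 33 of them higher, or 10.3% against 11.5% of all tests. Groups did not overlap in 31 member tests above the WT, where the share over all tests was 5.29%, and in 19 below, where it was 4.58%. In 27 of 29 mutants no member was called. Leaving out WT library S133 gave 5 lower calls and leaving out WT library S46 gave 0, while leaving out H3K4Q library S98 gave 5 higher calls. All 29 comparisons use the same 4 WT libraries, so their directions are not independent. With the set of sample numbers as covariate, 90 of the 493 log2 changes changed sign, so counts of directions are given below with and without it.

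The 2 calls both concerned Q0255. Its levels in WT libraries S46, S81, S82 and S133 were 4.76, 4.05, 5.02 and 3.29 CPM (counts scaled to 1e+06 per library), from 7, 8, 10 and 7 counts. In H3R40K libraries S136, S137 and S138 it was 0.827, 0.645 and 1.198 CPM, from 2, 2 and 3 counts, a log2 change of −2.18 (SE 0.693, adjusted p = 0.0346 by edgeR), in a comparison where 4.28% of genes were lower. In H3S31D libraries S139, S140 and S141 it was 0.742, 0 and 0.730 CPM, from 1, 0 and 1 counts, a log2 change of −3.00 (SE 0.914, adjusted p = 0.0416 by edgeR), in a comparison where 3.14% were lower. No library of either mutant reached the WT range.

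These calls rest on few counts. When libraries were left out 1 at a time, the Q0255 call held in 1 of 7 such fits for H3R40K and in 2 of 7 for H3S31D, with log2 changes of −2.42 to −1.98 and −3.39 to −2.41. With the set of sample numbers as covariate they were −1.69 (adjusted p = 0.263) and −2.51 (adjusted p = 0.347). In the authors' deposited table of log2 fold changes the values for Q0255 are −1.01 in H3R40K and −0.79 in H3S31D. The fitted change was below zero in 27 of 29 mutants with a median of −1.26 (26 and −1.12 with the set as covariate). The groups did not overlap in 15 of them, where 4.58% of all tests were free of overlap below the WT. These 15 made up most of the 19 member tests below the WT. For the mean of the mutants the change of Q0255 was −1.201 with an adjusted p of 0.421 by edgeR, where 0.137% of genes were called. In that comparison 0 members were called and 1 had an unadjusted p below 0.05, where 6.61% of genes had.

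In H3K4Q no member was called, although its 17 tested members were all above zero (16 with the set as covariate). Of these members 11 had an unadjusted p below 0.05, where 12.6% of all genes had. The median log2 change was 1.11 against −0.01 over all genes. The largest was AI3, a homing endonuclease frame of a COX1 intron, at 1.82 (SE 0.528, adjusted p = 0.0837), and 15S rRNA stood at 1.52 (SE 0.432, adjusted p = 0.0816). The levels of 21S rRNA in S57, S58 and S98 were 9086, 9604 and 2862 CPM, against 2784, 4226, 3457 and 2827 CPM in the WT. S57 and S58 lay above every WT library and S98 within the WT range. In H3K4Q no member was free of overlap, where 4.26% of genes lay wholly above the WT and 4.59% wholly below. With the set as covariate 5 members were higher, 15S rRNA at 1.56 (adjusted p = 0.0159), AI2 at 1.33, AI3 at 1.92, AI4 at 1.31 and AI5_ALPHA at 1.46, where 0.962% of genes were higher. Without S98, the second-set library, the same 5 genes were called, 15S rRNA at 1.94.

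In H3S86D no member was above zero and the median was −0.43, and with the set as covariate 2 were, with a median of −0.37. Its 15S rRNA was 16.99, 22.8 and 12.9 CPM in S87, S88 and S113, against 40.8, 49.1, 41.2 and 31.9 CPM in the WT, a log2 change of −1.197 (SE 0.494, adjusted p = 0.246). Those groups did not overlap, where 5.32% of genes were free of overlap below the WT, and the change did not pass. The 21S rRNA, at 2180, 3132 and 1167 CPM, overlapped the WT with a log2 change of −0.62 (SE 0.428, adjusted p = 0.491). H3K18A, whose libraries all lie in the third set, had 2 of 17 members above zero with a median of −0.48, but 8 with a median of −0.08 when the set was a covariate. H3S86A had 4 above zero in both fits, with medians of −0.32 and −0.21.

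H3T3A had 13 of 17 members above zero with a median of 0.70, and 17 with a median of 0.97 when the set was a covariate. H3K36Q had 13 in both fits, with medians of 0.64 and 0.73. AI2, a maturase with reverse transcriptase encoded in a COX1 intron, was 334.4 and 149.1 CPM in the H3T3A libraries against 78.8, 100.7, 106.4 and 97.2 CPM in the WT, a log2 change of 1.34. Both H3T3A libraries lay above the WT, as did those of 12.6% of genes in that comparison. The edgeR adjusted p of the comparison's members did not go below 0.0844. Across mutants AI2 was above zero in 27 of 29 in both fits, with medians of 0.50 and 0.48 and no call in the fit without the set. It had 7 unadjusted p below 0.05, where 11.5% of all tests in either direction had one. In 11 mutants it was free of overlap above the WT, where 5.29% of all tests were. All these comparisons share the WT range of 78.8 to 106.4 CPM.

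**Figure D3:**
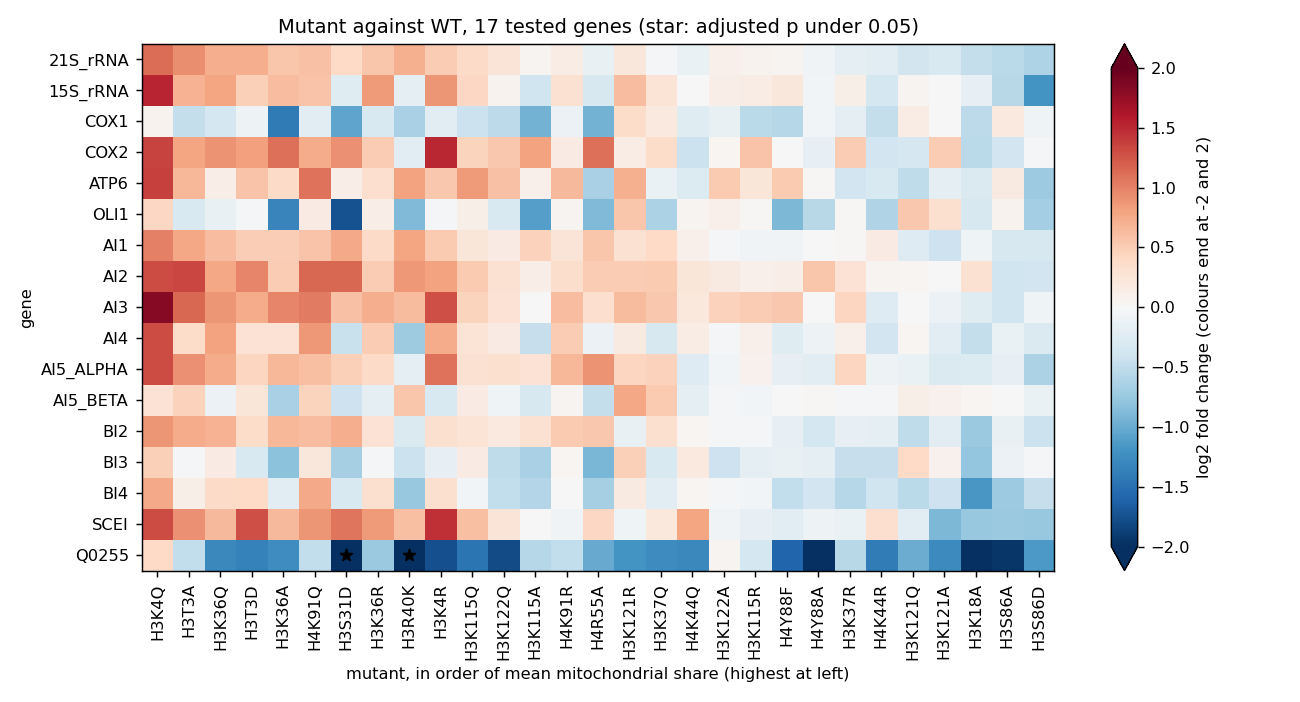
Fitted log2 change against the WT (colour scale) of the 17 tested members in rows and the 29 mutants in columns, ordered by mean mitochondrial share from high to low, with a star at an adjusted p below 0.05. H3K4Q is above zero in every row, with a median of 1.11, and Q0255 is below zero in 27 of 29 columns.

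Among the subunits of the respiratory chain and the ATP synthase, COX1 lay below zero in 24 of 29 mutants with a median of −0.25. COX1 had 4 unadjusted p below 0.05, all lower, where 11.5% of all tests in either direction had one. With the set as covariate it lay below zero in 17, and its change turned from −0.53 to 0.53 in H3K18A, from −0.20 to 0.86 in H3K37R and from −0.65 to 0.41 in H3R40K. The WT levels were 82.9, 34.9, 25.1 and 12.7 CPM in S46, S81, S82 and S133, so the WT libraries differed widely among themselves. In H3K36A COX1 was 18.04, 13.7 and 10.7 CPM, a log2 change of −1.41 (adjusted p = 0.103), and its libraries overlapped the lowest WT library. Without WT library S46, the highest for COX1, it was −0.78. With the set as covariate it was lower, at −1.53 (adjusted p = 0.0269), where 3.62% of genes were lower. AI5_BETA, a frame inside COX1, was higher in that edgeR fit in H3K37Q, at 1.21 (adjusted p = 0.0439) against 0.52 without the set. It was also higher in H3R40K, at 1.24 (adjusted p = 0.0238) against 0.55. In these comparisons 2.92% and 4.55% of genes were higher. H3K18A, H3K37Q, H3K37R and H3R40K lie wholly in the third set, which only WT S133 and H4Y88A S132 tie to the other sets. The third-set term of AI5_BETA in that fit was −0.82 (SE 0.305), and WT S133 was its lowest WT library, at 61.5 CPM.

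OLI1, which encodes the ring subunit of the ATP synthase, was 136.6, 51.6, 51.2 and 18.8 CPM in the WT libraries. In H3S31D it was 9.64, 39.7 and 5.84 CPM, a log2 change of −1.74 that was not called, and 1 of its 3 libraries lay within the WT range. It was −0.49 with the set as covariate. Across mutants OLI1 was below zero in 16, and in 10 with the set as covariate. COX2 was above zero in 21 of 29 mutants with a median of 0.51 (23 with the set as covariate), and ATP6, a subunit of the ATP synthase, in 20 with a median of 0.25 (24). None of these passed the test.

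The intron reading frames were described by their ranges. AI1 was 553, 1009, 1340 and 1218 CPM in WT libraries S46, S81, S82 and S133, and over the 89 libraries it ran from 348 CPM in H3K121A S76 to 2756 CPM in H3K4R S56. It was above zero in 20 of 29 mutants with a median log2 change of 0.26 (23 with the set as covariate), and the lowest WT library was also the one with the highest COX1. AI3 ran from 2.94 CPM in H4K44R S116 to 56.5 CPM in H3K4Q S57 around WT libraries of 6.80 to 16.1 CPM, and was above zero in 23 mutants with a median of 0.50 (28 with the set as covariate). AI4, known as a homing endonuclease, ran from 12.04 to 95.01 CPM, again highest in H3K4Q S57, and AI5_ALPHA from 10.4 CPM to 127.6 CPM in H3K4R S56. The upper ends of AI1 to AI5_ALPHA all lay in libraries of the H3K4 mutants in the run S49 to S58. AI5_BETA behaved otherwise, with 201, 175, 90.3 and 61.5 CPM in the WT, a highest library in H3K121R S78 at 267.7 CPM and a lowest in H3K36A S50 at 48.4 CPM.

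Among the frames of COB introns, which encode maturases, BI2 was above zero in 16 mutants, BI3 in 9 and BI4 in 10, with median log2 changes of 0.19, −0.17 and −0.23. The fit with the set had BI2 above zero in 21, BI3 in 18 and BI4 in 19, so the direction of BI3 and BI4 turned. BI3 was 84.96, 75.4, 39.6 and 26.3 CPM in the WT libraries and had its lowest level, 10.7 CPM, in H4R55A S125, the library with the lowest COX1 and OLI1. BI4 ran from 5.25 CPM in H3K122Q S100 to 83.03 CPM in H4K91Q S71, and its lowest fitted change was −1.17 in H3K18A, not called. SCEI ran from 5.04 CPM in H3S86D S113 to 95.7 CPM in H3K4R S56, the former also the lowest library for 21S rRNA, whose row contains it. COX2 had its highest level, 54.8 CPM, in H3K4R S56 too, and ATP6 its highest, 26.9 CPM, in H3K4Q S57.

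Substitutions of the same residue were compared with each other without the WT. Of 289 member tests over 17 pairs, 0 were called by edgeR, where 0.694% of all tests were, and the lowest adjusted p was 0.37. At an unadjusted p below 0.05 there were 8, or 2.77% against 6.1% of all tests.

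Libraries of one genotype varied more in the members than in most genes. The pooled standard deviation of log2 CPM within genotypes (89 libraries, 59 degrees of freedom) had a median of 0.604 over the 17 members and of 0.368 over all genes tested, and of 0.337 over nuclear genes with at least 10 CPM. OLI1 had 0.892, larger than 99.4% of 2145 genes of like level. AI5_BETA had the smallest, 0.387, larger than 76.8% of such genes. The tests of the members therefore had to pass a wider spread than those of most genes. This spread includes differences between sets, as 21 genotypes have libraries in both the first and the second set. The median difference between those sets was −0.64 over the members and −0.02 over all genes. How much of the spread it makes up was not tested.

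The members did not vary as one. After the values were seen, 16 of the tested members were put into a group of 12 that varied with 21S rRNA (15S rRNA, AI1, AI2, AI3, AI4, AI5_ALPHA, BI2, BI4, SCEI, ATP6 and COX2 besides it) and a group of 4 (COX1, OLI1, BI3 and AI5_BETA). Over 89 libraries the median Pearson r was 0.671 over the 66 pairs within the first group (0.378 to 0.86), 0.654 over the 6 pairs within the second (0.514 to 0.819) and 0.133 over the 48 pairs between them (−0.253 to 0.586). After the genotype means were removed, with differences between sets left in, the medians were 0.688, 0.619 and 0.175. The groups were cut from these same libraries, so the medians describe the cut and are no test of it. Single pairs between the groups reached 0.586 for AI4 with BI3 and 0.521 for 15S rRNA with OLI1. The strongest pair of the second group was COX1 with OLI1, at 0.819, while COX1 with 21S rRNA was −0.0501. The points share their libraries and CPM scaling, and the rows of a group can share reads, as AI1 to AI5_ALPHA start at one position; COX1 and OLI1 do not overlap. The ratio of not uniquely aligned reads had r = 0.584 with AI5_ALPHA and 0.538 with AI1, and −0.293 with COX1 and −0.368 with AI5_BETA.

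**Figure D4:**
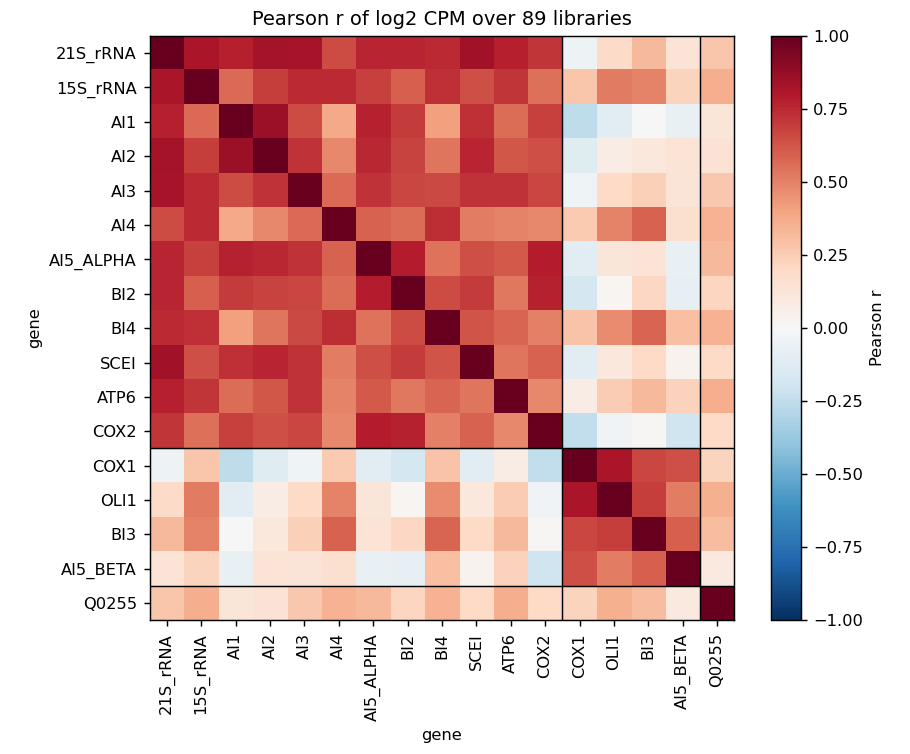
Pearson correlation of log2 CPM over 89 libraries (colour scale) for each pair of tested members, ordered by group. The group of 12 genes with 21S rRNA has a median r of 0.671, that of COX1, OLI1, BI3 and AI5_BETA 0.654, and the pairs between them 0.133. The groups were chosen after these values were seen.

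The lowest OLI1 libraries were spread over genotypes and sets. They were H4R55A S125 at 4.07 CPM with COX1 at 5.59, H3K115A S64 at 5.68 with 6.62, and H3S31D S141 at 5.84 with 9.49 CPM. Next came H4Y88F S73 at 7.90 CPM, H3S31D S139 at 9.64, H3K36A S94 at 10.7 and H4Y88A S47 at 10.9. Of these 7 libraries, all but H4Y88F S73 were also among the 7 lowest for COX1. Their 21S rRNA was 2111 CPM in H4R55A S125 and 2358 CPM in H4Y88A S47, below every WT library, and 5473 CPM in H3K115A S64 and 4274 CPM in H3S31D S139, above every WT library. Low OLI1 and COX1 were thus seen beside both low and high 21S rRNA.

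**Figure D5:**
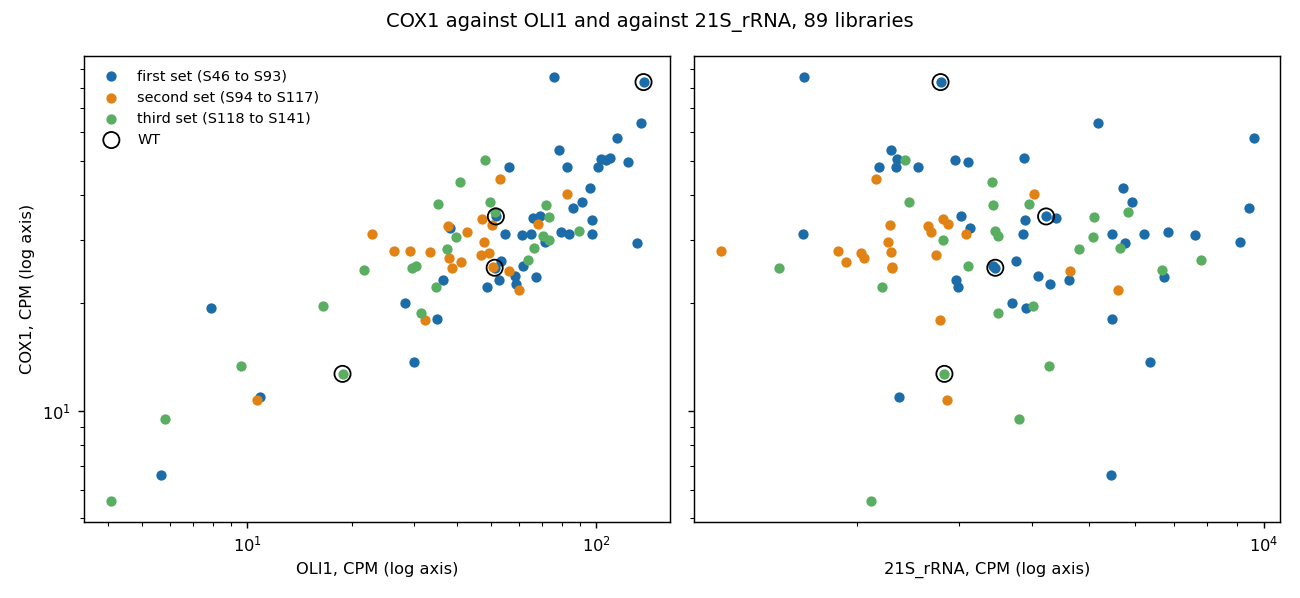
COX1 (CPM, log axis) against OLI1 and against 21S rRNA (CPM, log axes), 1 point per library for 89 libraries, coloured by set of sample numbers with WT circled. COX1 follows OLI1 with r = 0.819 and has r = −0.0501 with 21S rRNA.

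The nuclear genes that maintain and express the mitochondrial genome were described from 6 lists with 155 tested genes, over the same 29 comparisons. Of their 4495 tests 45 were higher, or 1.0% against 0.856% of all tests, and 12 lower, or 0.267% against 0.548%. Both shares lay near those of all genes or under them. Without WT library S81 28 were higher, and the lower ones were 19 without WT library S133 and 4 without WT library S46. Summed over all mutants, genes for maintenance of mitochondrial DNA (10 genes, 290 tests) had 2 higher calls, or 0.69% of tests. Mitochondrial transcription and RNA processing (20 genes, 580 tests) had 3 higher, or 0.517%. Translational activators (14 genes, 406 tests) had 1 higher, or 0.246%. Mitochondrial ribosomal proteins (71 genes, 2059 tests) had 24 higher and 8 lower, or 1.17% and 0.389%. Nuclear subunits of complexes III, IV and V (32 genes, 928 tests) had 14 higher, or 1.51%. Retrograde response genes (8 genes, 232 tests) had 1 higher and 4 lower, or 0.431% and 1.72%. H3K4Q and H3S86D had no called gene in these lists, in comparisons that called few genes at all: 0.12% higher and 0.189% lower in H3K4Q, and 0.601% and 0.155% in H3S86D.

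In H3K121R 15 genes of the lists, or 9.68%, were higher, where 3.83% of all genes were, and in H3K37Q 12, or 7.74%, were, where 4.29% were. Of these, 10 in each mutant lie on chromosome XI. The 298 tested genes of chromosome XI had a median log2 change of 0.89 in H3K121R against −0.01 over the other genes, and 0.84 in H3K37Q against −0.04. Of all genes called higher, 169 of 223 in H3K121R and 163 of 250 in H3K37Q lie on that chromosome. In each mutant some called list genes lie elsewhere, and what the list counts depend on was not tested.

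In H3R40K 7 list genes, or 4.52%, were higher, where 4.57% of genes were, and 5, or 3.23%, lower, where 4.28% were. These shares lay near those of all genes. The higher ones include subunits of the ATP synthase, ATP14 at 1.47 and ATP1 at 1.38, where ATP1 was 1109 ± 91.1 CPM (SD, n = 3) against 426 ± 25.2 CPM in the WT (SD, n = 4), and COX13, a subunit of cytochrome c oxidase, at 1.09. MSS51, which activates translation of the COX1 mRNA, was higher at 1.19 and MRP7, a mitochondrial ribosomal protein, at 0.91. DLD3, a known target of the retrograde pathway, fell by 2.15, from 144.8 ± 76.6 CPM in the WT to 32.4 ± 10.5 CPM, IDH2 by 1.53 and MRPS8 by 1.07. All libraries of these genes in H3R40K lay outside the WT range, which was a condition for naming them. Over all genes tested 10.6% were free of overlap above the WT in H3R40K and 9.95% below. The calls of ATP14, ATP1, MSS51, MRP7 and DLD3 held in 7 of 7 fits that left out a library, that of IDH2 in 4, of MRPS8 in 3 and of COX13 in 1. When the not-unique ratio was a covariate, COX13 stood at 0.14 and MSS51 at 0.37, neither called.

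In H3S31D 2 list genes, or 1.29%, were higher, where 2.13% of genes were, and 4, or 2.58%, lower, where 3.14% were. DLD3 fell by 1.58, IDH2 and RSM19, a mitochondrial ribosomal protein, each by 1.59, while ATP14 rose by 0.89 and MRP7 by 0.61. Each of these calls held in 1 to 3 of 7 fits that left out a library. With the set as covariate the values were −0.85 for DLD3, −0.91 for IDH2, −0.85 for RSM19, 1.05 for ATP14 and 0.61 for MRP7, none of them called. H3T3A had 1 higher, ATP14 at 1.31, where 0.55% of genes were, and it was 0.79 without library S130. These 3 mutants lie in the third set. With the set as covariate 9 of their 19 list calls held, among them ATP14, ATP1, COX13, MSS51, MRP7 and DLD3 in H3R40K and ATP14 in H3T3A, and none in H3S31D.

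By genotype means over 30 genotypes, the 10 nuclear genes of 4762 with at least 10 CPM whose level was most like the mitochondrial share were MSS116 (Pearson r = 0.912), MYO1 (0.889), SWI3 (0.885), BNI1 (0.882), NET1 (0.875), SPT5 (0.874), SMC4 (0.872), STU2 (0.864), SPC110 (0.856) and TPM2 (0.855). MSS116 encodes a helicase that acts in the splicing of mitochondrial introns. It was not called in any mutant, with a lowest adjusted p of 0.261 by edgeR, and its WT libraries ran from 128.5 to 162.4 CPM within a range of 92.8 to 286.3 CPM over 89 libraries. The 10 genes had a median length of 3014 bases against 1302 over the genes compared, and each correlated with the ratio of not uniquely aligned reads as well, MSS116 at 0.525. Of the genes compared, 14.7% had r above 0.5.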

How the data were processed

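The authors deposited 1 table of raw gene counts (whole numbers, not normalized) with 90 columns and 1 table of log2 fold changes against WT, with 1 column per mutant. Per the submitters' processing notes, TopHat, HTSeq, featureCounts 1.5.3 and the sacCer3 build were used; their order and the strand setting are not given in the sources used here. The table has 4 emptied lines and 0 unused columns, and its 5 summary lines stayed out of library sizes. The members and lists, and the sets of sample numbers, were chosen with earlier results of these data known.

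Counts were fitted with edgeR 4.0.16 in R 4.3.3, with TMM scaling, filterByExpr by genotype and 1 coefficient per genotype over all 90 libraries, and tested by the quasi-likelihood test over 5822 genes. Benjamini-Hochberg adjustment ran within each comparison with a threshold of 0.05. Log2 CPM used a prior count of 2. The S55 library entered the fits and was left out of correlations and spreads. DESeq2 1.42.0 was an alternative. Gene symbols and positions came from RefSeq R64, which matched 6159 of 7122 rows (21 of 30 members). Members with at least 10 CPM or a call were named with values and the others summarised; named mutants were those with a called member and the 3 highest and 3 lowest by share, and other mutants and libraries named were chosen after their values were seen; up to 4 called genes of a list were named per such mutant, with libraries outside the WT range. The fit was also run on counts simulated from its own dispersions, with no difference between sets. That run therefore does not show how often the tests err under the set differences seen here. Of 92 replicate pairs, the lowest chi-square per degree of freedom was 2.01, so every library was counted separately. The 14 ATAC-seq samples were not analysed here.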

Additional observations from a re-analysis of the deposited data

How the results depend on the processing

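No paired analysis was possible because the columns of the count table carry no replicate numbers. Member calls against the WT, 0 higher and 2 lower, became 2 and 0 in fits of 2 genotypes at a time (0.256% and 0.12% of all tests), 7 and 1 with the set as covariate (0.909% and 0.591% of all tests) and, in alternatives chosen after seeing the data, 6 and 1 with the not-unique ratio as covariate (1.34% and 1.02%) and 10 and 1 in first-set libraries alone (0.867% and 0.654%). DESeq2 gave 1 lower (0.583%), and 69 unadjusted p below 0.05. The set covariate gave 1 lower call in H3K36A, where 3.62% of genes were lower. It gave 1 higher in H3K37Q and 5 in H3K4Q, where 2.92% and 0.962% of genes were higher, and 0 in H3S31D. The not-unique covariate gave 7 in H3R40K and 0 in H3S31D. H3R40K ratios of 1.26 to 1.62 lay below every other library, so those 7 calls rest on extending the trend of the others. First-set libraries gave 1 in H3K36A, 7 in H3K4Q and 3 in H3K4R, and DESeq2 gave 0 in H3S31D. Outside the set fit, shares of genes called in single mutants are not given here. Leaving out libraries, higher calls ran from 0 to 5 (5 without H3K4Q S98) and lower calls from 0 to 5 (5 without WT S133), with 0 to 5 in H3K4Q, 0 to 1 in H3R40K and 0 to 3 in H3S31D, and 0 to 1 in each of H3K36A, H3K4R, H3K121R and H4R55A. Nuclear list calls, 45 higher and 12 lower, were 18 and 6 in fits of 2 genotypes, 39 lower with the not-unique ratio and 84 and 7 in first-set libraries, and 28 to 63 and 4 to 19 on leaving libraries out. Shares of all tests called in those alternative fits are given above, and the first-set libraries allowed 21 comparisons. The set covariate changed the sign of 90 of 493 member log2 changes and of the members' median in H3R40K (−0.18 to 0.41), H4R55A (−0.14 to 0.28) and H4K44R (−0.30 to 0.05), among others. The not-unique ratio turned the members' median in H3R40K (−0.18 to 0.52), H3S31D (0.14 to −0.25) and H3T3D (0.43 to −0.08), among others. The cause of these differences was not tested. Depth limits Q0255, with at most 17 counts a library. Why 13 members had too few counts to test was not tested.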

Other observations

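The count table also holds 24 rows of mitochondrial transfer RNAs, which the rule left out, with 5633 counts in all. The row tD(GUC)Q, an aspartate transfer RNA, took 77.4% of them. It was 17.4 to 49.7 CPM in the WT libraries, 0 in H3K115R S66 and 110.7 CPM in H3K36Q S53. RPM1, the RNA of mitochondrial RNase P, had 14 counts.

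The nuclear subunits of complexes III, IV and V had a median r of 0.388 with COX1 and 0.363 with OLI1 over 89 libraries, and of 0.0513 with 21S rRNA. Retrograde response genes had medians of 0.387, 0.291 and −0.313, mitochondrial ribosomal proteins of 0.14, 0.11 and 0.00143, and all 5805 tested nuclear genes of −0.021, −0.0129 and −0.0238. These values share libraries and scaling, and genes are not independent replicates.

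The authors' deposited table gave 493 log2 changes for the tested members. They had r = 0.833 with the fitted values across genes and mutants, 85.4% had the same sign, and the median absolute difference was 0.214.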
